A study of Raphidocelis subcapitata with 270 samples.

Results

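The 60 genes described here were those whose share of the counts was lower at level D1 of both 2-tert-butyl-4-methoxyphenol and 3,4-Dichlorophenyl isocyanate, and less so with any of 10 other chemicals, in the green alga Raphidocelis subcapitata. They were chosen from 13429 genes, of which 9381 reached a mean level of 5 CPM or more (CPM, a gene's counts per 1000000 counts of the library) over the 18 DMSO libraries. For each chemical L was the log2 ratio of the mean CPM at D1 over the mean CPM in the DMSO libraries of the same control set, with 2 CPM added to both means. An L of -0.5 or less was found for 1820 of the 9381 genes (19.4%) with the methoxyphenol, for 834 (8.89%) with the isocyanate and for 379 with both. These 379 genes were ranked by a score, the lowest L among the other 10 chemicals minus the higher of the methoxyphenol and isocyanate L, and the 60 highest were kept. The score was above 0 for 116 of the 379. Because D1 and DMSO libraries of every chemical chose the genes, values of those libraries are given as a description.

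R. subcapitata is a single-celled freshwater green alga and a standard organism of aquatic toxicity tests. 2-tert-Butyl-4-methoxyphenol is an isomer of the synthetic phenolic antioxidant butylated hydroxyanisole. 3,4-Dichlorophenyl isocyanate is a reactive intermediate in the manufacture of phenylurea herbicides, and in water isocyanates hydrolyse to the amine, here 3,4-dichloroaniline. The files do not pair the Rsub identifiers with gene names, so the genes are given by identifier and without a function.

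Cultures were exposed for 24 h in well plates, and libraries of 3′ ends of polyadenylated RNA were sequenced. The groups used were 7 levels, D1 to D7, of the methoxyphenol (below, methoxyphenol) and of Metribuzin-DA, deaminated metribuzin, a breakdown product of a triazinone herbicide, with the DMSO libraries of their shared control set. The second control set held 7 levels of the isocyanate (below, isocyanate) and of Metolachlor OA, the oxanilic acid breakdown product of a chloroacetanilide herbicide, with their own DMSO libraries. Each level and each DMSO group had 3 libraries, A, B and C. In the same way 8 further chemicals were arranged in 4 more control sets. These sets paired 1(2H)-Phthalazinone with Gabapentin and Hydrochlorothiazide with 4-chlorophenyl methyl sulfone. They also paired Cetirizine Hydrochloride with Fipronil carboxamide and Fexofenadine with cis-nonachlordane. Libraries of these 8 chemicals were also used, in the choice of genes and in later comparisons. Which concentration each level stands for, and which of D1 and D7 is the highest, is not stated in the labels, so the levels are treated as named groups. They do not say whether the 3 libraries came from separate cultures, so the p-values measure only the spread between libraries.

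Library totals ranged from 731426 to 1752548 counts in the 90 libraries of these 2 control sets, and from 596651 to 1909938 in all 270. Library A at D1 of methoxyphenol stood apart from its replicates, with a chi-square of the counts over its degrees of freedom of 9.19 against library B and 10.4 against library C, where B and C gave 2.39 and the median of all 270 replicate pairs was 2.62. The median L, the summed share, the number of genes called at D1 and the choice of genes are given with and without it. Other counts that rest on it are given only with it. CPM is a share of a library's counts, so fewer transcripts of a gene and more transcripts of other genes cannot be told apart.

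At D1, L of the 60 genes lay between -4.68 and -0.51 with methoxyphenol (median -1.01) and between -2.40 and -0.51 with isocyanate (median -0.83). Without library A the methoxyphenol median was -1.08. L was lower with methoxyphenol than with isocyanate for 44 genes. It was -1 or less for 31 genes with methoxyphenol, for 18 with isocyanate and for 13 with both. For 36 of the 60 genes no other chemical had an L of -0.5 or less. The genes were mostly of moderate or low abundance, with a mean DMSO CPM of 5.04 to 2467 and a median of 27.6, against a median of 39.8 for the 9381 genes. Below 10 CPM lay 7 of them, 45 lay between 10 and 100 CPM, and 8 were at 100 CPM or more.

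The genes closest to the border of the choice differed little in score. Rsub_02753 and Rsub_03744, the last genes included, scored 0.1615 and 0.1612. Rsub_04460 and Rsub_05019, the first left out, scored 0.1610 and 0.1607. Leaving out 1 library moved the choice further: 37 of the 60 genes were selected again without methoxyphenol D1 library A and 34 without isocyanate D1 library A.

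Rsub_11220 had the highest score, 1.71. Its level at D1 was 0, 1.52 and 2.32 CPM with methoxyphenol, against 84.2, 83.3 and 79.3 CPM in DMSO. With isocyanate at D1 it was 86.0, 60.8 and 44.9 CPM, against 351, 313 and 376 CPM in DMSO. The treated libraries lay far below the DMSO libraries in both sets, while the DMSO level itself was higher in the isocyanate set. Rsub_09652, second in score, was of low abundance. It had 3.08, 3.81 and 8.49 CPM with methoxyphenol at D1, against 16.2, 8.25 and 13.9 CPM in DMSO, and 1 treated library overlapped the DMSO range.

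In the edgeR quasi-likelihood fits of each chemical's D1 libraries against DMSO, 35 of the 60 genes were called lower with methoxyphenol at an adjusted p under 0.05, where 7.92% of all genes were called lower. Without library A these were 37 genes, where 9.62% of all genes were called. With isocyanate 20 of the 56 genes that passed the count filter were called lower, where 2.70% of all genes were. These 20 were all among the 35. All 3 D1 libraries lay below all 3 DMSO libraries for 50 genes with methoxyphenol, against 19.4% of the 9381 genes, and for 47 with isocyanate, against 10.1%. These numbers follow from the choice of genes and from DMSO libraries that the choice used.

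**Figure D1:**
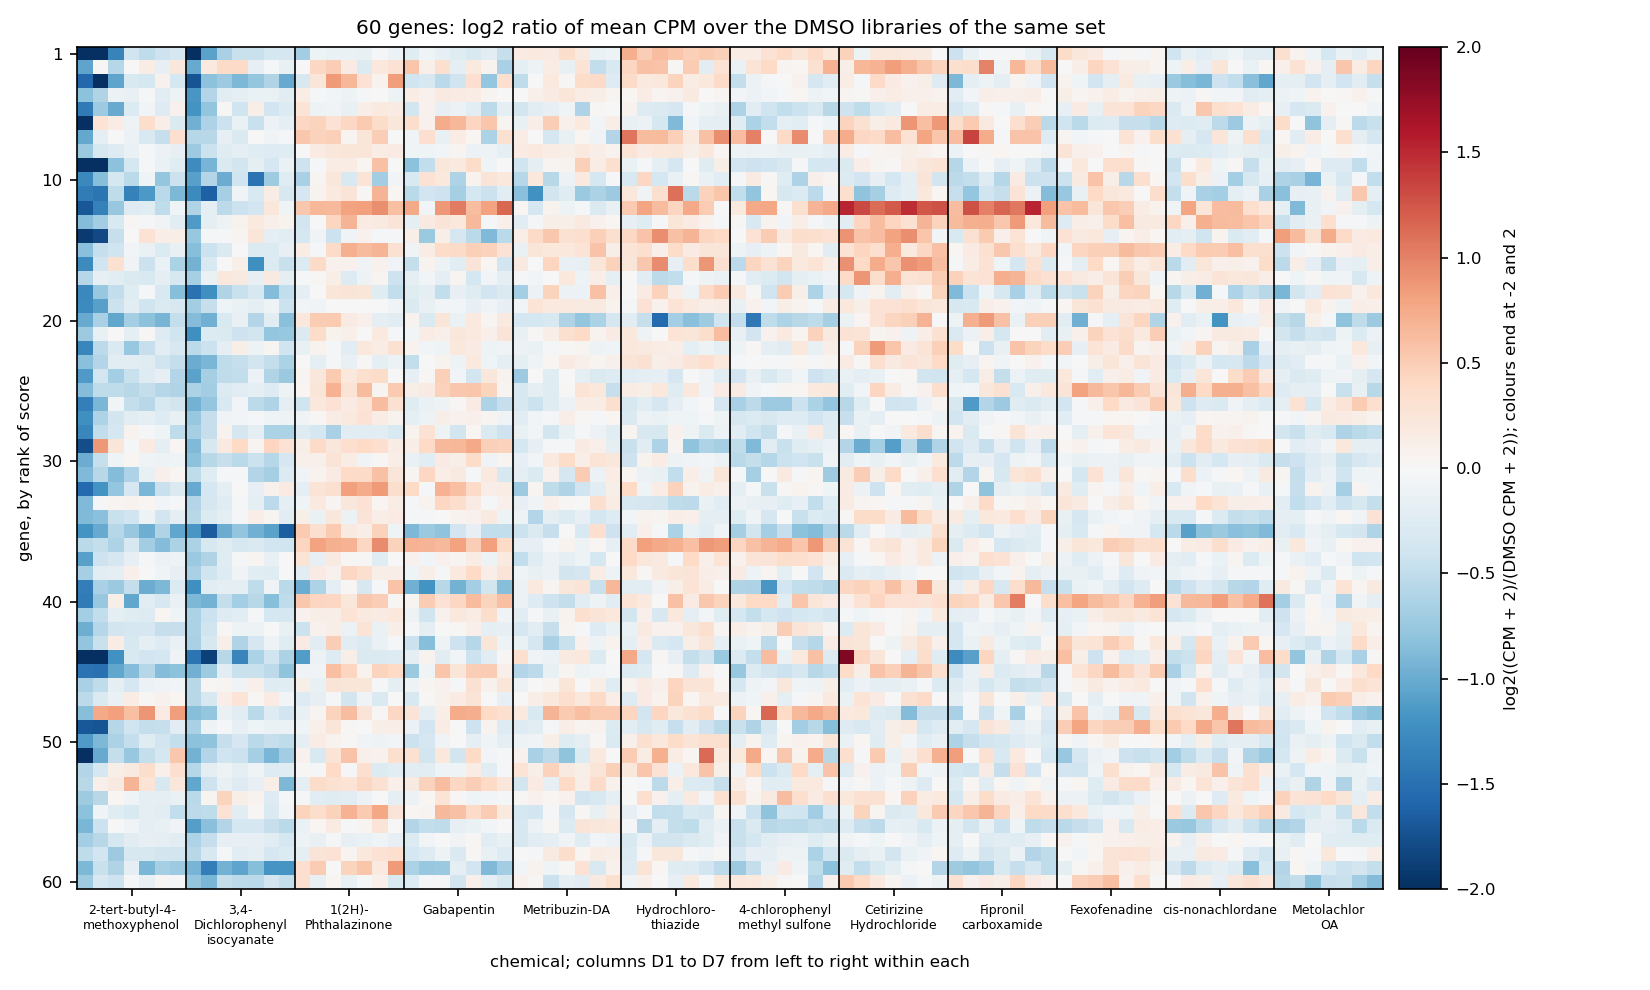
Heat map of the 60 genes (rows, by rank of score) at D1 to D7 of the 12 chemicals (columns); colour gives the log2 ratio of the mean CPM of 3 libraries over the mean of the 3 DMSO libraries of the same set, with 2 CPM added. The D1 columns of methoxyphenol and isocyanate, which chose the genes, are blue throughout, and the D2 columns beside them are mostly blue and paler, with medians of -0.54 and -0.46.

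Away from D1 the ratios to DMSO shrank. Over D1 to D7 the median L of the 60 genes was -1.01, -0.54, -0.35, -0.25, -0.19, -0.25 and -0.22 with methoxyphenol. It was -0.83, -0.46, -0.24, -0.20, -0.20, -0.26 and -0.27 with isocyanate. The step from D1 to D2 was the largest, and from D4 to D7 the medians stayed slightly below 0. With the other 10 chemicals the medians at single levels lay between -0.24, at D1 of Fipronil carboxamide, and 0.22, at D3 of 1(2H)-Phthalazinone. Mean CPM at D2 lay above D1 and below DMSO for 51 genes with methoxyphenol and for 49 with isocyanate. All these values are a description. The choice took genes low at D1 against these same DMSO libraries. Ratios nearer to 0 away from D1, and medians still below 0, can follow from that choice.

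Summed, the 60 genes took 0.316 ± 0.051% of a library's counts at D1 of methoxyphenol, 0.444 ± 0.029% at D2 and 0.526 ± 0.036% at D3 (SD, n = 3 each), and 0.554% to 0.584% on average at D4 to D7. At D1 library A held 0.375%, against 0.290% in library B and 0.284% in library C, and the mean without A was 0.287%. They took 0.649 ± 0.025% at D2 of Metribuzin-DA and 0.654 ± 0.027% in DMSO. With isocyanate the sum was 0.406 ± 0.033% at D1, 0.515 ± 0.026% at D2 and 0.643 ± 0.035% at D3, against 0.701 ± 0.010% at D2 of Metolachlor OA and 0.735 ± 0.033% in DMSO. At D2 no library of methoxyphenol or isocyanate reached the lowest library of its partner chemical. The 3 most abundant genes supplied 63.2% of the summed DMSO CPM. Without them the sum at D2 was 0.184 ± 0.022% with methoxyphenol, against 0.262 ± 0.002% with Metribuzin-DA, and 0.206 ± 0.013% with isocyanate, against 0.281 ± 0.004% with Metolachlor OA.

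**Figure D2:**
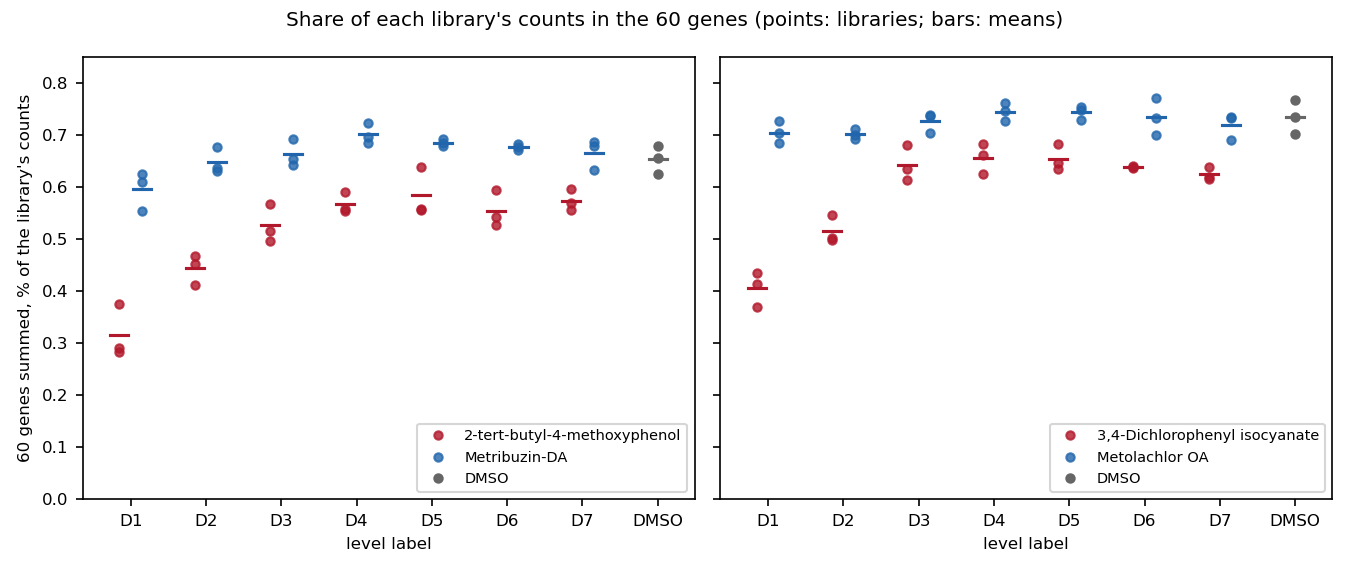
Summed share of the 60 genes in each library's counts, in percent, by level (points, libraries; bars, means of 3), for methoxyphenol and Metribuzin-DA (left panel) and isocyanate and Metolachlor OA (right panel), with the DMSO libraries of each set. The D2 means, 0.444% with methoxyphenol and 0.515% with isocyanate, lie above the D1 means of 0.316% and 0.406% and below all partner libraries.

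The comparisons that used none of the libraries of the choice were those between treated libraries at D2 to D7. They were still not independent of the choice, since D1 libraries of both chemicals of each pair took part in it. The lowest L among the other chemicals was that of Metribuzin-DA for 7 genes and of Metolachlor OA for 11. The choice thus limited how low the genes could be at D1 with these partner chemicals. This may carry over to D2 to D7, which was not tested. Methoxyphenol was set against Metribuzin-DA and isocyanate against Metolachlor OA, level by level, with edgeR's quasi-likelihood test over all genes and Benjamini-Hochberg adjustment. A gene was called at an adjusted p under 0.05. The replicate letter was left out of these fits, and numbers with the letter as a block are given at the end. All 60 genes were tested in the methoxyphenol pair and 58 in the isocyanate pair.

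At D2, 13 of the 60 genes were called lower and 1 higher in methoxyphenol than in Metribuzin-DA, that is 21.7% of the genes lower, where 2.87% of the 9493 genes tested were called lower and 5.40% higher. The log2 fold change was below 0 for 54 of the 60 genes, with a median of -0.40, against 51.5% below 0 and a median of -0.02 over all genes tested. In the isocyanate pair at D2, 8 of 58 genes were called lower, or 13.8%, where 0.632% of the 9494 genes tested were called lower. There 48 of the 58 fold changes were below 0 and the median was again -0.40, against 50.4% below 0 and a median of -0.00 over all genes tested. Fold changes were below 0 in both pairs for 43 genes. The share of all genes below 0 in both pairs is not given, so this number cannot be read as particular to the 60 genes. The number called in the isocyanate pair rested on single libraries: it was 5 without isocyanate D2 library B, 3 without library C, and 4, 4 and 5 without Metolachlor OA D2 library A, B or C. In the methoxyphenol pair it was 11 to 13 whichever D2 library was left out.

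Rsub_11220 stood out in both pairs at D2. It was at 13.5, 12.9 and 15.5 CPM with methoxyphenol, against 97.2, 90.6 and 94.9 CPM with Metribuzin-DA. With isocyanate it was at 176, 140.5 and 177 CPM, against 396, 340.2 and 357 CPM with Metolachlor OA. The groups did not overlap in either pair, and the gap was wider with methoxyphenol. The log2 fold change was -2.69 ± 0.26 (SE, edgeR adjusted p = 2.59e-11) in the methoxyphenol pair and -1.15 ± 0.14 (edgeR adjusted p = 6.57e-07) in the isocyanate pair, and the isocyanate call held whichever D2 library was left out. At D3 the gene was the only one of the 60 called lower in both pairs, with 37.5, 30.2 and 26.5 CPM with methoxyphenol, against 113, 69.6 and 94.1 CPM with Metribuzin-DA. By D7 it was at 66.6, 54.9 and 72.2 CPM with methoxyphenol, against 73.2, 75.3 and 82.5 CPM with Metribuzin-DA.

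**Figure D3:**
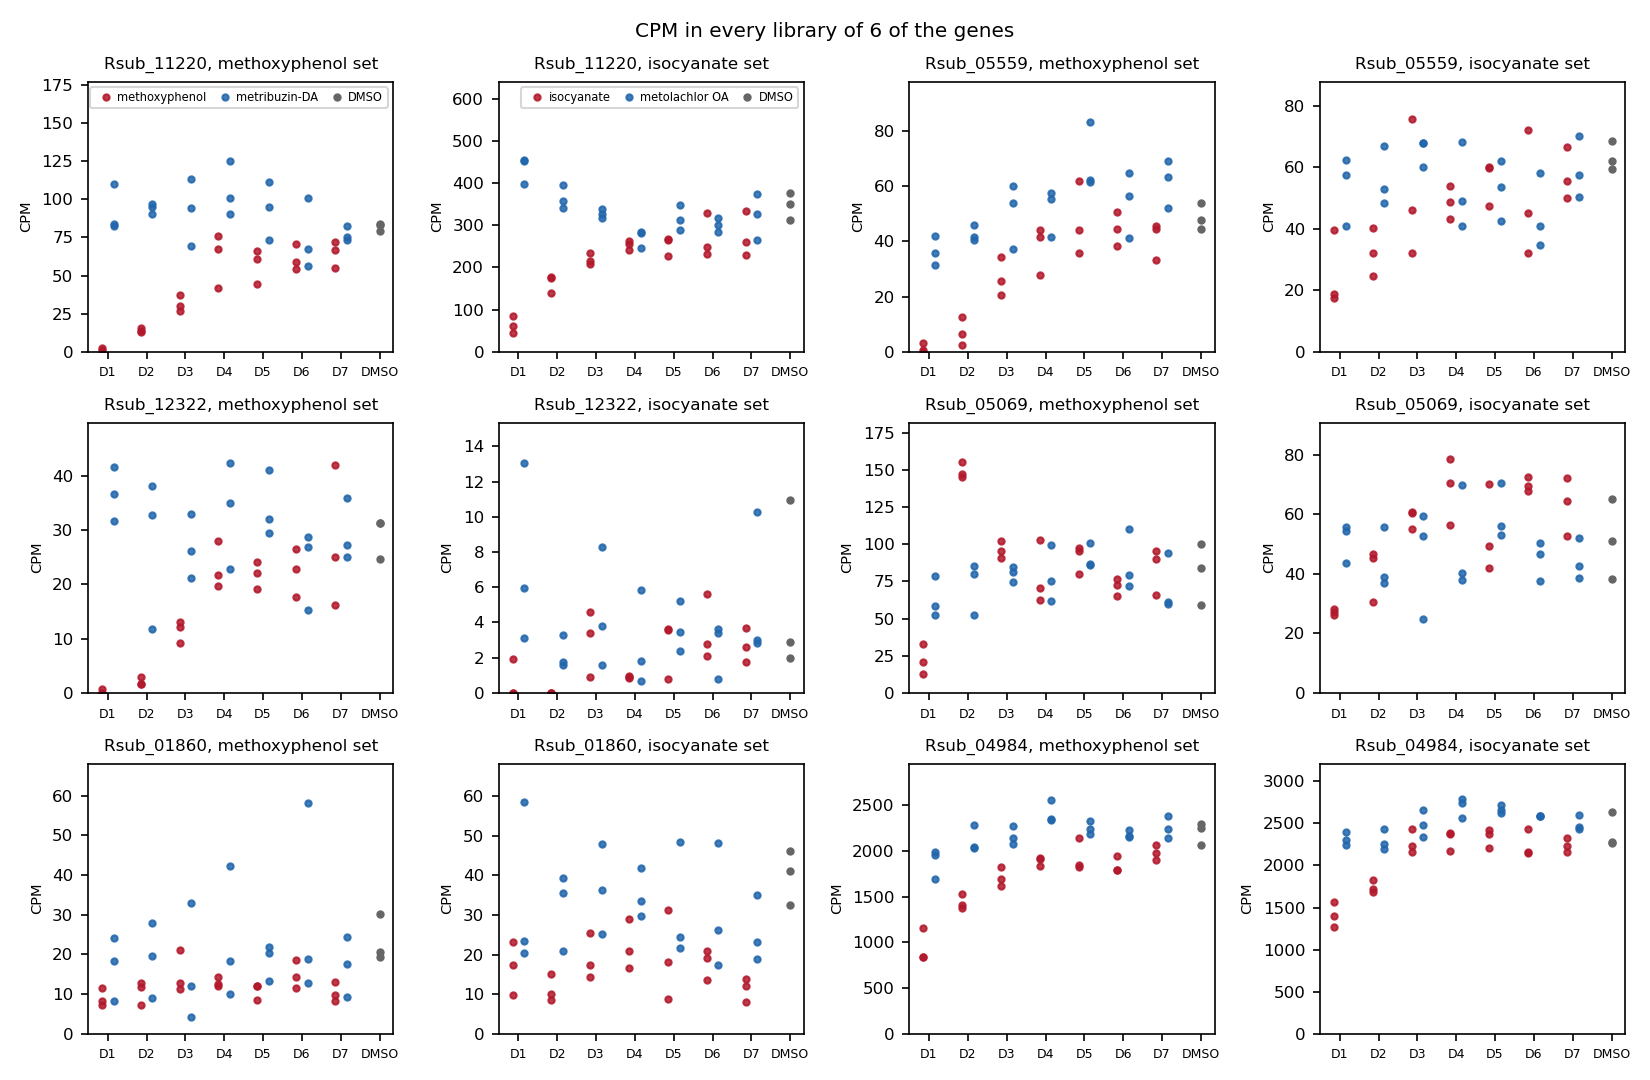
CPM in every library of 6 of the genes, by level, in the methoxyphenol set (methoxyphenol red, Metribuzin-DA blue, DMSO grey) and the isocyanate set (isocyanate red, Metolachlor OA blue, DMSO grey); axes start at 0 and differ between panels. Rsub_11220 was at 13.5, 12.9 and 15.5 CPM at D2 of methoxyphenol, and Rsub_05069 was below DMSO at D1 of methoxyphenol and above Metribuzin-DA at D2.

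Being called lower at D2 in both pairs was the case for 6 genes: Rsub_11220, Rsub_04984, Rsub_09325, Rsub_11201, Rsub_02378 and Rsub_01044, of which Rsub_11201 and Rsub_01044 were named after their values were seen. They made up 6 of the 13 genes in the methoxyphenol pair and 6 of the 8 in the isocyanate pair. Over all genes, 26 were called lower in both pairs, of 272 in the methoxyphenol pair and 60 in the isocyanate pair. The genes called were the more abundant ones: their median DMSO CPM was 66.6 in the methoxyphenol pair, against 22.1 for the other genes tested there, and 213 in the isocyanate pair, against 22.8.

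Rsub_04984 was the most abundant of the 60 genes, with a mean of 2467 CPM in DMSO. At D2 it was at 1529, 1381 and 1409 CPM with methoxyphenol, against 2285, 2027 and 2044 CPM with Metribuzin-DA. With isocyanate it was at 1831, 1723 and 1685 CPM, against 2197, 2259 and 2434 CPM with Metolachlor OA. All treated libraries of methoxyphenol and of isocyanate lay below those of the partner chemical, by a moderate amount. The log2 fold change was -0.49 ± 0.08 (SE, edgeR adjusted p = 5.85e-06) in the methoxyphenol pair and -0.40 ± 0.07 (edgeR adjusted p = 0.000644) in the isocyanate pair.

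Rsub_09325, second in abundance with 1372 CPM in DMSO, was at 861, 651 and 773 CPM with methoxyphenol at D2, against 1175, 959 and 1126 CPM with Metribuzin-DA. With isocyanate it was at 1004, 847 and 995 CPM, against 1417, 1338 and 1283 CPM with Metolachlor OA. The groups did not overlap in either pair. Its log2 fold change was -0.45 ± 0.12 (SE, edgeR adjusted p = 0.00836) in the methoxyphenol pair and -0.51 ± 0.09 (edgeR adjusted p = 0.000497) in the isocyanate pair. The first of these calls was lost without methoxyphenol D2 library B, with an edgeR adjusted p of 0.0941, or without Metribuzin-DA D2 library A, with 0.074.

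Rsub_02378 was at 115, 140.3 and 59.5 CPM with methoxyphenol at D2, against 311, 234 and 267 CPM with Metribuzin-DA, and at 166, 131 and 146 CPM with isocyanate, against 213, 192 and 212 CPM with Metolachlor OA. Its log2 fold change was -1.30 ± 0.19 (SE, edgeR adjusted p = 1.64e-06) with methoxyphenol and -0.48 ± 0.12 (edgeR adjusted p = 0.0285) with isocyanate. The isocyanate call was lost when isocyanate D2 library B or C, or Metolachlor OA D2 library A, B or C, was left out, with edgeR adjusted p between 0.0558 and 0.178.

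Among the genes called lower at D2 in the methoxyphenol pair, those of the lowest fold change were Rsub_00516 and Rsub_12322. Rsub_00516 was at 0.842, 0 and 0 CPM with methoxyphenol, against 3.60, 9.82 and 8.97 CPM with Metribuzin-DA. That was 1 count over the 3 methoxyphenol libraries, against 25 counts over the 3 Metribuzin-DA libraries, so the level with Metribuzin-DA was 27.8 times that with methoxyphenol. The 95% exact Poisson bounds of this ratio, for counting error alone, were 4.55 and 1142. The fitted log2 fold change of -4.25 ± 1.04 (SE, edgeR adjusted p = 0.0052) rests on these few counts. In the isocyanate pair the gene was at 18.4, 5.66 and 17.4 CPM with isocyanate, against 24.2, 24.99 and 17.97 CPM with Metolachlor OA, and was not called (edgeR adjusted p = 0.329).

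Rsub_12322 was at 1.68, 2.86 and 1.72 CPM with methoxyphenol at D2, against 11.7, 32.7 and 38.1 CPM with Metribuzin-DA, a log2 fold change of -3.57 ± 0.48 (SE, edgeR adjusted p = 2.56e-07). The groups did not overlap, and the call held whichever D2 library was left out. In the isocyanate pair the gene did not pass the count filter. It had 0 counts in the 3 isocyanate libraries at D2, against 8 counts over the 3 Metolachlor OA libraries. With the 0 replaced by a floor of 3 counts over the group, the level with Metolachlor OA was 2.265 times that with isocyanate. The counting error of the 8 counts is not included, so this ratio is not a lower bound. Rsub_00461, also filtered out there, had 6 counts over the 3 isocyanate libraries at D2, against 12 counts over the 3 Metolachlor OA libraries.

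Rsub_05559 was at 12.6, 6.44 and 2.59 CPM with methoxyphenol at D2, against 45.9, 41.5 and 40.3 CPM with Metribuzin-DA, and at 40.1, 32.1 and 24.7 CPM with isocyanate, against 52.8, 48.4 and 67.0 CPM with Metolachlor OA. The groups did not overlap in either pair. Its log2 fold change was -2.48 ± 0.33 (SE, edgeR adjusted p = 2.49e-07) in the methoxyphenol pair, and in the isocyanate pair it was -0.81 ± 0.27 and missed the threshold (edgeR adjusted p = 0.129). Rsub_01860 had the lowest fold change among the genes called in the isocyanate pair. It was at 15.2, 8.48 and 10.1 CPM with isocyanate, against 35.5, 21.0 and 39.2 CPM with Metolachlor OA, a log2 fold change of -1.51 ± 0.41 (SE, edgeR adjusted p = 0.0456). That call was lost when isocyanate D2 library B or C, or Metolachlor OA D2 library A or C, was left out, with edgeR adjusted p between 0.121 and 0.237.

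Rsub_05069 was the one gene called higher at D2 in the methoxyphenol pair. At D1 of methoxyphenol it was at 32.9, 12.9 and 20.8 CPM, against 100.3, 59.4 and 84.0 CPM in DMSO, as the choice required. At D2 it was at 147, 145 and 155 CPM with methoxyphenol, against 85.5, 52.4 and 80.0 CPM with Metribuzin-DA. Every methoxyphenol library lay below every DMSO library at D1 and above every Metribuzin-DA library at D2. The log2 fold change at D2 was 1.09 ± 0.19 (SE, edgeR adjusted p = 6.04e-05). Against the mean of D3 to D7 of methoxyphenol itself it was also higher at D2, by 0.90 ± 0.14 (SE, edgeR adjusted p = 3.69e-06). In the isocyanate pair at D2 it was at 30.4, 45.3 and 46.7 CPM with isocyanate, against 38.9, 55.6 and 36.8 CPM with Metolachlor OA, and the groups overlapped.

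The least abundant genes gave no call at D2. Rsub_03217, with 5.04 CPM in DMSO, was at 8.42, 4.29 and 9.49 CPM with methoxyphenol, against 0.900, 2.18 and 4.48 CPM with Metribuzin-DA, and was not called (edgeR adjusted p = 0.142). Rsub_07333, with 5.84 CPM in DMSO, was at 7.58, 2.15 and 2.59 CPM with methoxyphenol, against 5.40, 7.64 and 9.71 CPM with Metribuzin-DA, and was not called either (edgeR adjusted p = 0.487). Rsub_09652, second in score, was at 10.9, 10.7 and 17.2 CPM with methoxyphenol at D2, against 13.5, 7.64 and 14.2 CPM with Metribuzin-DA, with overlapping groups.

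**Figure D4:**
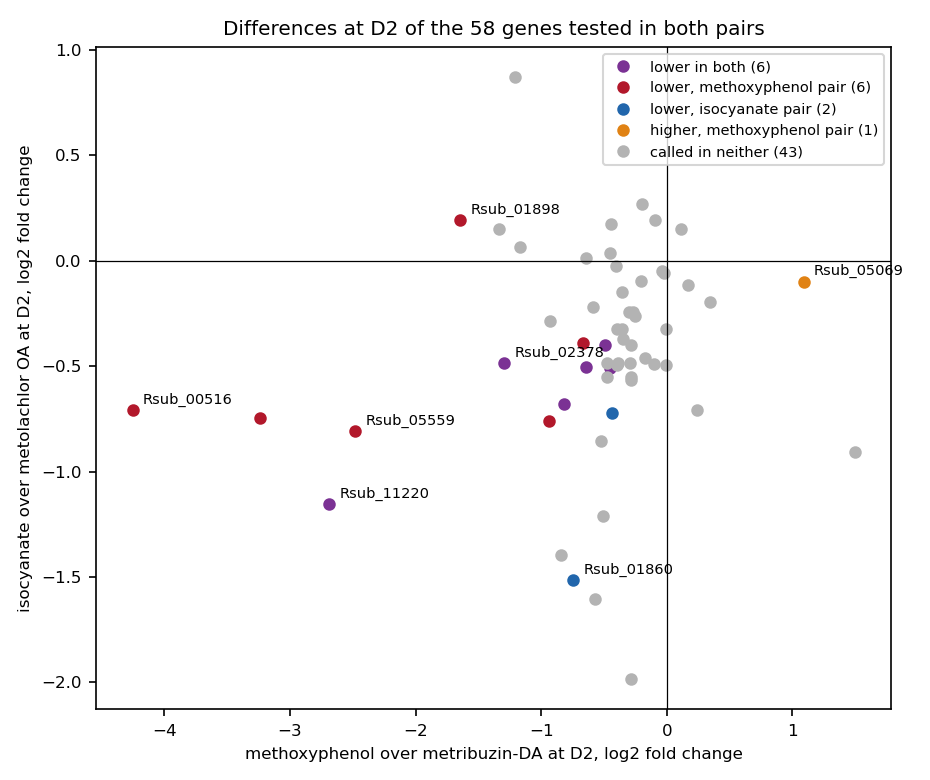
Log2 fold change at D2 of methoxyphenol over Metribuzin-DA (horizontal axis) and of isocyanate over Metolachlor OA (vertical axis) for the 58 genes tested in both pairs (points, genes; colours, edgeR calls at an adjusted p under 0.05). For 43 genes both values are below 0, and Rsub_11220 is low on both axes, while Rsub_05069 lies at 1.09 on the horizontal axis. The share of all genes with both values below 0 is not given.

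The difference between the fold changes of both pairs at D2 was tested in 1 fit over the 72 treated libraries of the 4 chemicals. Each pair compared treated chemicals. A change with Metribuzin-DA or Metolachlor OA therefore cannot be told apart from an opposite change with methoxyphenol or isocyanate. Of the 60 genes 4 were called, 3 with a lower fold change in the methoxyphenol pair, where 0.195% of all 9745 genes were called in that direction, and 1 with a higher one, where 1.28% were. The difference of the log2 fold changes was -1.53 ± 0.29 (SE, edgeR adjusted p = 0.000384) for Rsub_11220. It was -1.67 ± 0.46 (edgeR adjusted p = 0.0379) for Rsub_05559 and -1.84 ± 0.45 (edgeR adjusted p = 0.0159) for Rsub_01898. Rsub_01898 was at 7.58, 10.02 and 4.31 CPM with methoxyphenol at D2, against 35.1, 16.4 and 21.7 CPM with Metribuzin-DA, and at 34.7, 21.7 and 27.5 CPM with isocyanate, against 16.4, 34.7 and 21.2 CPM with Metolachlor OA. Its groups were apart in the methoxyphenol pair and overlapped in the isocyanate pair. The difference was 1.19 ± 0.32 (edgeR adjusted p = 0.0377) for Rsub_05069, the gene that was higher with methoxyphenol. The number called was 1 without methoxyphenol D2 library C or isocyanate D2 library A, and 2 without Metribuzin-DA D2 library A or Metolachlor OA D2 library A or B. Rsub_11220 was called in each of these. Across the 58 genes the fold changes at D2 of both pairs had a Spearman rho of 0.22, and of 0.19 without Rsub_11220, over genes that share their libraries within a pair.

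Within methoxyphenol, 9 of the 60 genes were called lower at D2 than in the mean of D3 to D7 and 1 higher, where 1.09% of all genes were called lower and 3.51% higher. Within isocyanate 3 of 58 were called lower, Rsub_11220, Rsub_04984 and Rsub_11201, where 1.03% of all genes were. The methoxyphenol number was 5 without its D2 library C and 4 without all C libraries, and the isocyanate number was 1 without all B libraries.

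At D3 the number of calls depended on the method. In the methoxyphenol pair 3 of the 60 genes were called lower, Rsub_11220, Rsub_04984 and Rsub_01044, where 0.801% of all genes were, and in the isocyanate pair 1 of 58, Rsub_11220, where 0.190% were. DESeq2 called 7 genes in the methoxyphenol pair, and edgeR without the low-count filter also called 7. Without that filter 115 of all genes were called lower, in place of 76. The number over all genes with DESeq2 is not given. At an unadjusted p under 0.05 there were 16 of 60 genes in the methoxyphenol pair, where 6.91% of all genes were, and 8 of 58 in the isocyanate pair, where 4.81% were. The methoxyphenol number was 6 without its D3 library A and 1 without library B or C. The isocyanate number was 2 without its D3 library A and 0 without any other D3 library of the pair.

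Over D4 to D7 together, with 12 libraries a chemical, small differences were called. In the methoxyphenol pair 21 of the 60 genes were called lower, where 8.93% of all genes were called lower, and the median log2 fold change was -0.25. In the isocyanate pair 19 of 58 were called lower and 1, Rsub_05069, higher, where 8.44% of all genes were called lower and 7.62% higher, with a median of -0.23. Both pairs shared 14 of these genes, of 21 and of 19, and over all genes they shared 394, of 848 and of 801. The number was 10 without all B libraries and 12 without all C libraries in the methoxyphenol pair, and 3 without all B libraries and 11 without all C libraries in the isocyanate pair. Over D2, D3 and D4 to D7, 25 genes were called lower at least once in the methoxyphenol pair, 20 in the isocyanate pair, 16 in both and 31 in neither. Over all genes tested these were 975 (10.3%) in the methoxyphenol pair, 812 (8.55%) in the isocyanate pair and 417 in both.

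The same comparison was made in the other 4 control sets, added after the data were seen, with the second chemical of each set over the first in the order of the labels, since methoxyphenol and isocyanate both come second in theirs. At D2, 2 of 60 genes were called lower in cis-nonachlordane than in Fexofenadine, where 0.633% of all genes were. These were Rsub_09325, at 1110.3, 908 and 1086 CPM with cis-nonachlordane, against 1534, 1334 and 1232 CPM with Fexofenadine, and Rsub_13256, at 27.5, 40.5 and 39.03 CPM with cis-nonachlordane, against 54.3, 63.1 and 52.3 CPM with Fexofenadine. Rsub_13256 was named after its values were seen. With edgeR no gene of the 60 was called lower at D2 in Gabapentin against 1(2H)-Phthalazinone (0.182% of all genes), in 4-chlorophenyl methyl sulfone against Hydrochlorothiazide (0.238%) or in Fipronil carboxamide against Cetirizine Hydrochloride (0.0539%). At an unadjusted p under 0.05 there were 6 of 59, 9 of 56 and 7 of 57 such genes, where 5.64%, 6.67% and 3.66% of all genes were, and DESeq2 called 0 in each. Without the low-count filter edgeR called 1 in 4-chlorophenyl methyl sulfone, where it called 75 of all genes, and 1 in cis-nonachlordane, where it called 79. The medians of the genes tested were also below 0 in these 4 sets at D2, from -0.27 for 4-chlorophenyl methyl sulfone to -0.13 for Gabapentin, and nearer to 0 than the -0.40 of methoxyphenol and of isocyanate. Whether the medians of the sets differ was not tested. The choice had already limited how low these genes could be at D1 with the other chemicals, which may carry over to D2. At D3 edgeR called none of these genes lower in Gabapentin (0.128% of all genes), 4-chlorophenyl methyl sulfone (0.108%), Fipronil carboxamide (0%) or cis-nonachlordane (1.07%). At an unadjusted p under 0.05 there were 5 of 59, 7 of 56, 1 of 57 and 6 of 60, where 5.02%, 5.54%, 4.04% and 7.48% of all genes were. DESeq2 called 0, 0, 0 and 1, and edgeR without the low-count filter called 0, 2, 0 and 1, where it called 61, 65, 17 and 124 of all genes. Numbers over all genes are not given for DESeq2.

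Over D4 to D7 the lower calls were not confined to methoxyphenol and isocyanate. In cis-nonachlordane 18 of 60 genes were called lower than in Fexofenadine, where 11.5% of all genes were called lower, with a median log2 fold change of -0.19. In 4-chlorophenyl methyl sulfone 14 of 56 were called lower than in Hydrochlorothiazide, where 8.21% were, with a median of -0.19, and 1 was called higher, where 7.44% were. DESeq2 called 9 lower there, and its number over all genes is not given. In Fipronil carboxamide 6 of 57 were called lower than in Cetirizine Hydrochloride, where 3.03% were, and in Gabapentin 3 of 59 lower than in 1(2H)-Phthalazinone, where 2.66% were, and 2 higher, where 3.17% were. At D7 the median of cis-nonachlordane, -0.24, lay between those of methoxyphenol and isocyanate, -0.23 and -0.25, while at D2 the medians of methoxyphenol and isocyanate were the lowest of the 6 sets.

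**Figure D5:**
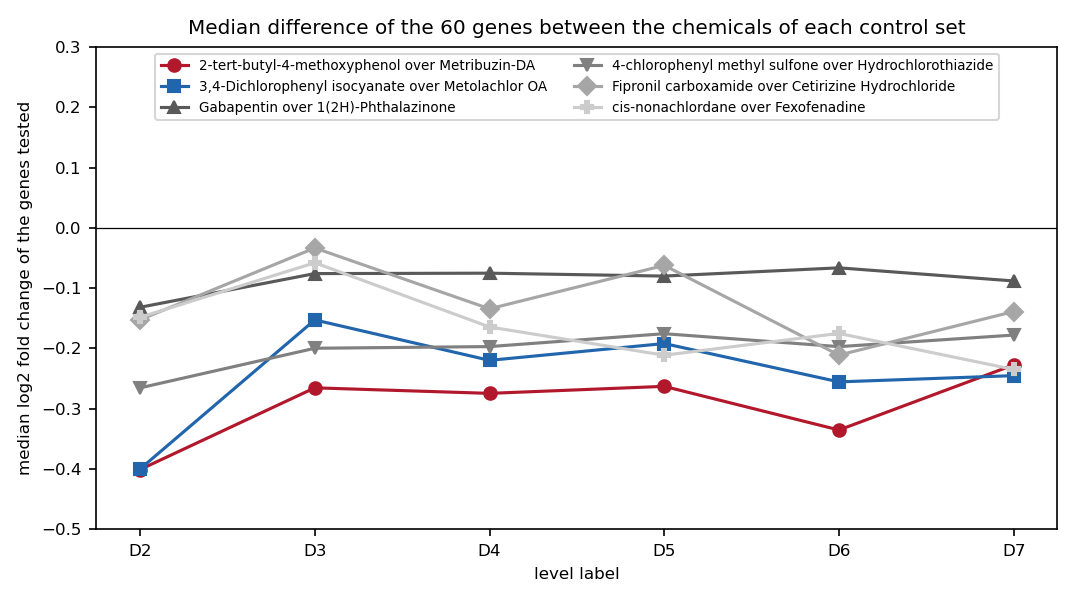
Median log2 fold change of the genes tested, at D2 to D7, of the second over the first chemical in each of the 6 control sets (1 line per set; fits as in the text). At D2 methoxyphenol and isocyanate lie at -0.40 and the other 4 sets between -0.27 and -0.13; at D4 to D7 all 6 lines lie below 0, between -0.34 and -0.06.

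The DMSO libraries themselves differed between control sets for many of the 60 genes. The log2 ratio of the highest over the lowest of the 6 DMSO means was 1 or more for 27 of the 60 genes, or 45.0%, against 23.6% of the 9381 genes. The DMSO mean was highest in the methoxyphenol set for 17 genes, where it was for 16.7% of the 9381 genes. It was highest in the isocyanate set for 20, where it was for 22.7% of the 9381. These are libraries that the choice used as denominators. Rsub_11220 had a mean DMSO level of 82.3 CPM in the methoxyphenol set and 84.3 CPM in the set of Gabapentin, and between 238 and 347 CPM in the other 4 sets. Rsub_05069 ran the other way in part, at 81.2 CPM in the methoxyphenol set and 51.5 CPM in the isocyanate set, with 25.7 to 117 CPM in the other sets. Rsub_12322 had 29.1 CPM in the methoxyphenol set and 5.27 CPM in the isocyanate set, where its 3 DMSO libraries held 13 counts in all.

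At D1 edgeR called genes of the 60 with 5 of the other 10 chemicals. Called lower were Rsub_01432, Rsub_04984 and Rsub_10742 in 4-chlorophenyl methyl sulfone (5.12% of all genes), Rsub_04984 in Cetirizine Hydrochloride (0.338%) and in Fipronil carboxamide (2.38%), and Rsub_05559 in Gabapentin (6.72%). They were named after their values were seen. Called higher was Rsub_11220 in Hydrochlorothiazide, at 374, 458 and 347 CPM, against 242, 241 and 230.3 CPM in DMSO, where 0.641% of all genes were called higher. Rsub_12322 was called higher in Cetirizine Hydrochloride, at 33.3, 47.2 and 33.8 CPM, against 7.89, 9.80 and 9.52 CPM in DMSO, where 0.328% were. All 3 treated libraries lay above all 3 DMSO libraries for both genes. These D1 values are a description, since the choice limited how low a gene could be with the other chemicals.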

How the data were processed

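The deposited values are whole-number read counts per gene, 1 table per chemical with its 21 treated and 3 DMSO libraries, from QuantSeq 3′ libraries per the labels' protocols. The submitters' processing notes list featureCounts 2.0.6, SAMtools 1.15.1, STAR 2.7.10a and fastp 0.23.2; strandedness, handling of molecular identifiers, gene models and genome version were not given in the sources used here. CPM were computed from column totals. Tests on the counts used R 4.3.3 with edgeR 4.0.16 (filterByExpr, TMM scaling, glmQLFit, glmQLFTest, Benjamini-Hochberg adjustment over all genes tested), 1 fit over the 36 D2 to D7 libraries of both chemicals of a control set; DESeq2 1.42.0 was an alternative. The procedure was tested on simulated data. Genes were named by rule: the 2 highest and 2 lowest scores, the 2 genes just outside, the 2 lowest and 2 highest fold changes among those called at D2 in each comparison, and the 2 most and 2 least abundant. The genes, rules and lists were chosen with earlier results of these data known. DMSO libraries appear in both tables of a set and were used once. In none of the 270 pairs of replicate libraries did the counts agree within sampling noise: chi-square over its degrees of freedom was 1.65 to 10.4. Intervals cover counting error only.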

Additional observations from a re-analysis of the deposited data

Results flagged for a closer look

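For 4 of the 60 genes the fold change at D2 in the methoxyphenol pair differed from that in the isocyanate pair by the test of the difference itself, each with 3 libraries a group. Which chemical of a pair changed cannot be told from that test. The difference of the log2 fold changes was -1.53 for Rsub_11220, -1.67 for Rsub_05559 and -1.84 for Rsub_01898, all lower in the methoxyphenol pair. It was 1.19 for Rsub_05069, which lay above every Metribuzin-DA library at D2 of methoxyphenol. Rsub_11220 kept its call when any D2 library was left out, and the other 3 lost it in at least 1 such fit. Mean DMSO levels in the methoxyphenol and the isocyanate set were 82.3 and 347 CPM for Rsub_11220, 48.8 and 63.2 CPM for Rsub_05559, 81.2 and 51.5 CPM for Rsub_05069, and 28.7 and 29.99 CPM for Rsub_01898. They lay far apart for Rsub_11220 and close together for Rsub_01898, and their part in the differences was not tested.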

How the results depend on the processing

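The number of the 60 genes called lower at D2 in the methoxyphenol pair, 13, stayed within 1.5 times under every alternative run, as did the 21 and 19 called over D4 to D7 except when all libraries of 1 letter were left out. Without the low-count filter 7 genes were called lower at D3 in the methoxyphenol pair in place of 3. Over all genes that number rose from 76 to 115. DESeq2 also called 7 of the 60 genes. DESeq2 called 5 genes lower at D2 of isocyanate against its D3 to D7 in place of 3. With the replicate letter as a block the numbers were 10 at D3 in the methoxyphenol pair, 3 at D3 in the isocyanate pair and 6 at D2 of isocyanate against its D3 to D7. In the other control sets the block gave 3 at D2 and 2 at D3 for 4-chlorophenyl methyl sulfone and 3 at D3 for cis-nonachlordane, in place of 0 each. At D2 in the methoxyphenol pair the block also raised calls over all genes, with 405 called lower in place of 272. Of the 60 genes it called 15 there, in place of 13. For the other block counts and the DESeq2 counts the numbers over all genes are not given. A change particular to the 60 genes cannot be read from those counts. The labels do not say that letters pair libraries, and the main fits left the letter out. The adjusted p-values and the counts of the main fits therefore take no account of what libraries of the same letter share. In the DMSO libraries of every control set the summed share of the 60 genes was highest in A and lowest in C. The correlations of same-letter deviations were low, with means of 0.0148 to 0.0681 and single values down to -0.0936. They still exceeded those between letters, whose means were -0.0361 to -0.0068. By this measure 32 of 36 libraries of the methoxyphenol pair and 33 of 36 of the isocyanate pair correlated best with their own letter. Libraries of the same letter thus tended to deviate together, and why they did was not tested. Leaving out single libraries or letters gave these ranges: 11 to 13 at D2 in the methoxyphenol pair, 1 to 6 at D3, 10 to 20 over D4 to D7, and 4 to 9 at D2 against D3 to D7. In the isocyanate pair they were 3 to 8, 0 to 2, 3 to 22, and 1 to 4, and for the difference of both pairs 1 to 5. The shares of all genes called in these fits are not given. A change particular to the 60 genes therefore cannot be read from the ranges. The rule selected 34 to 54 of the 60 genes again without 1 library of D1 of methoxyphenol or isocyanate or of their DMSO groups. D1 libraries of the other 10 chemicals and the other DMSO libraries, which also set the score, were not left out. The rule selected 57 again with a pseudocount of 1, 46 with 5 and 50 with TMM-scaled totals. No named fold change turned its sign. The cause of these changes was not tested. The genes called at D2 in either pair had a mean DMSO level of 14.2 CPM (Rsub_12322) or more, and what depth contributed to this was not tested.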
